A study of Mus musculus with 14 samples.

Results

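The transcripts described here belong to 9 genes of glucose entry, glucose phosphorylation and lactate, pyruvate and glycerol phosphate handling, of 15099 named on the array, and they had 13 of its 23232 probes. The genes are Slc2a2, Slc2a1, Hk1, Hk2, G6pc2, Ldha, Slc16a1, Gpd2 and Pcx. Every probe whose single gene symbol, updated through its Entrez identifier, was one of these names is a member, which gave 4 probes for Hk1, 2 for Hk2 and 1 for each of the other genes. The set was chosen by its function but with the ratios of these same arrays in view. The members' ratios in each line, and their differences between lines, are thus a description and carry no test. All 13 probes passed the filter on missing values.

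In a pancreatic beta cell, glucose enters by facilitated transport, in rodents mainly through Slc2a2 (GLUT2), and is committed to glycolysis when it is phosphorylated. Mature beta cells phosphorylate it with glucokinase, whose low affinity makes the rate follow blood glucose. They keep the high-affinity hexokinases and the lactate pathway (lactate dehydrogenase A and the monocarboxylate transporter Slc16a1) low, so that pyruvate goes to the mitochondria and glycolytic NADH is reoxidised by the glycerol phosphate and malate-aspartate shuttles. The resulting ATP closes potassium channels and sets off insulin secretion. Loss of Slc2a2 and gain of Ldha, Slc16a1 or hexokinase are commonly read as departures from this mature state.

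RNA came from stably modified lines of MIN6, a mouse insulin-secreting beta-cell tumour line, all derived at passage 24 and kept for 4 days at 5 mM glucose. Sir2OE1 (3 arrays) and Sir2OE2 (4 arrays) carried mouse Sirt1, an NAD-dependent deacetylase, from the pBabe retrovirus with selection in 280 micrograms of G418 per ml, and their control was pooled RNA of Neo1 and Neo2, infected with the empty neomycin virus. Sir2KD1 (3 arrays) and Sir2KD2 (4 arrays) carried mU6pro vectors for a pair of siRNAs against Sirt1 with a neomycin marker and selection in 400 micrograms of G418 per ml, and their control was the line mU6pro. Each array held a line in one channel and its control in the other, and the channels were exchanged within every line. The 2 lines of a kind shared their control RNA, and nothing in the labels says that arrays of a line came from separate cultures, so the spread between arrays may be technical.

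The deposited values are log2 ratios that had been centred for each probe within each kind of line, and their direction is not stated. They were taken to have channel 2 on top, so the sign was turned wherever a line was in channel 1. The turned log2 ratio has a plus side and a minus side, and which of them means more RNA in the line is not settled. The Sirt1 probe, the one direct check, was at 0.08 ± 0.12 (SE, n = 3 arrays) in Sir2OE1, -0.33 ± 0.10 (n = 4) in Sir2OE2, -0.10 ± 0.12 (n = 3) in Sir2KD1 and 0.13 ± 0.10 (n = 4) in Sir2KD2. It was called in no line (limma adjusted p = 0.933, 0.131, 0.772 and 0.651). That the signs need turning is itself an assumption. Without it limma called none of the member probes in any line, and none had an unadjusted p under 0.05, but it called only 0, 0, 12 and 0 of all 23230 probes then, so the member counts of 0 say nothing about the members. With the centring undone too, the unturned fit called 2913, 672, 333 and 1403 of 23227 probes in the 4 lines, and no member among them. The undone ratios leave a factor shared by a probe's arrays of 1 kind unknown, so nothing is read from these counts. A ratio holds no level, so the labelled cell type could not be checked by its markers, levels cannot be set against each other between genes, and fewer cells expressing a gene cannot be told apart from less RNA per cell. Of a list of 13 beta-cell markers, 9 were measured on 10 probes, of which 1, 1, 2 and 2 were called in Sir2OE1, Sir2OE2, Sir2KD1 and Sir2KD2. That is 10, 10, 20 and 20% of them, beside 1.06%, 2.81%, 3.59% and 1.34% of all probes. The calls were on the plus side, except 1 of the 2 in Sir2KD1. Of other markers measured, 6 of other islet cells and 10 of mesenchymal, endothelial and immune cells gave no call in any line, and of 8 exocrine and duct markers 1 was called in each. Their part in the members' ratios was not tested.

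A probe counts as called when the limma p, adjusted by the Benjamini-Hochberg method over all 23230 probes tested, was under 0.05. Among the 13 member probes 1 was called in Sir2OE1, where 1.06% of all probes were, 3 in Sir2OE2 (2.81% of all probes), 2 in Sir2KD1 (3.59%) and 1 in Sir2KD2 (1.34%). Nothing is read from these counts, since the members were chosen with the ratios known. The calls fell on 3 genes, Slc2a2, Ldha and Slc16a1. The median over the 13 probes was 0.01 in Sir2OE1, 0.05 in Sir2OE2, 0.33 in Sir2KD1 and 0.02 in Sir2KD2, beside medians of all probes of -0.0015, -0.0036, 0.024 and -0.0027. The members thus did not move together. Slc2a2 stood on the minus side in every line, the lactate genes stood on the plus side in some lines, and the fitted ratios of the other 6 genes stayed between -0.81 and 0.65.

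**Figure D1:**
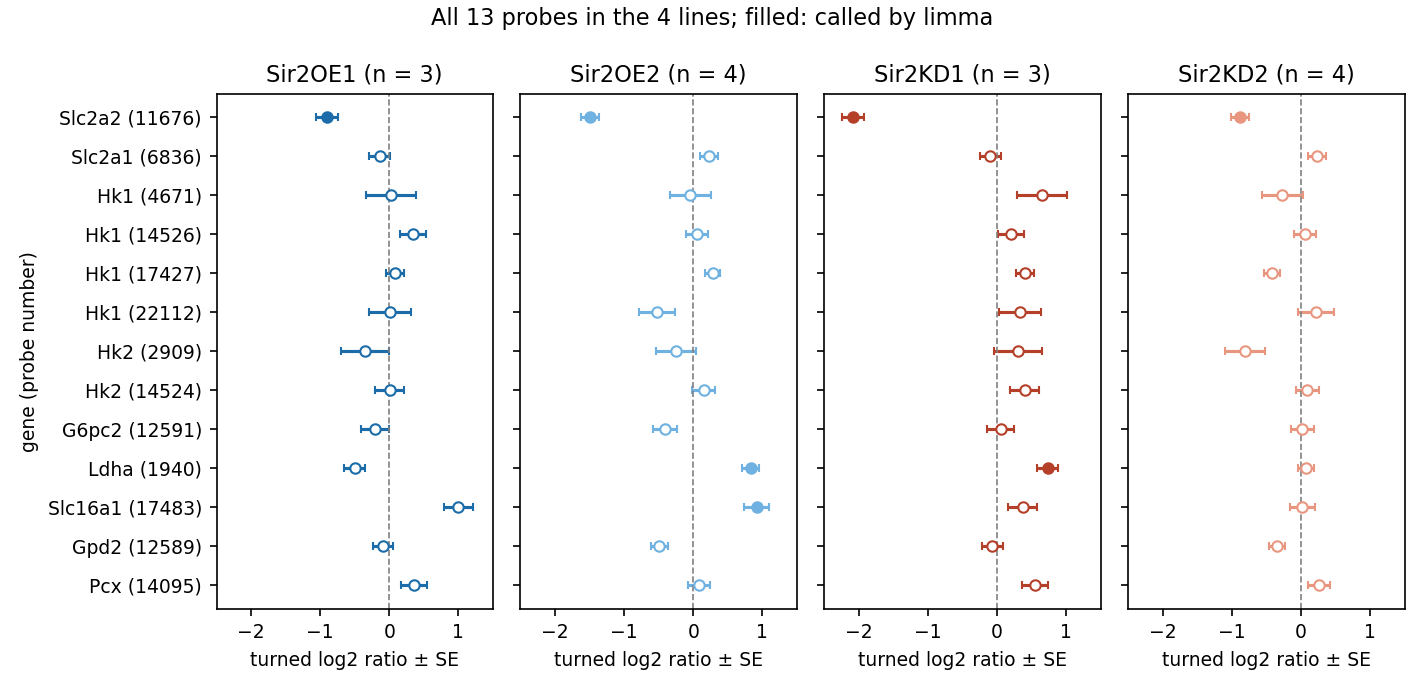
Turned log2 ratio (x axis, with SE bars) of all 13 member probes (rows, gene and probe number) in the 4 lines (panels, n arrays in each title); filled points were called by limma at an adjusted p under 0.05. Slc2a2 lies on the minus side in all 4 panels, from -0.89 to -2.08, while Ldha changes side between the overexpressing lines.

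Slc2a2 encodes GLUT2, the low-affinity glucose transporter through which rodent beta cells take up glucose. Its turned log2 ratio was -0.73, -0.96 and -1.0 on the 3 arrays of Sir2OE1 and -1.56, -1.56, -1.46 and -1.45 on the 4 arrays of Sir2OE2. It was -1.95, -1.97 and -2.31 on the 3 arrays of Sir2KD1 and -1.19, -0.72, -1.16 and -0.50 on the 4 arrays of Sir2KD2. All 14 arrays were on the minus side, those of Sir2KD1 lay lowest and those of Sir2OE1 and Sir2KD2 highest. The fitted ratio was -2.08 ± 0.16 (SE, n = 3) in Sir2KD1, a 4.22-fold difference from control, and -1.50 ± 0.13 (n = 4) in Sir2OE2, 2.84-fold. It was -0.90 ± 0.16 (n = 3) in Sir2OE1 and -0.89 ± 0.13 (n = 4) in Sir2KD2, 1.86-fold in each. In this order the arrays of Sir2KD1 did not overlap those of Sir2OE2, nor those of Sir2OE2 the arrays of Sir2OE1, whereas the range of Sir2OE1 fell inside that of Sir2KD2. Slc2a2 was the only member called in all 4 lines, and it stood on 1 side whether Sirt1 was meant to be raised or lowered. That both kinds of line share this side assumes that their ratios were deposited with the same channel on top.

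**Figure D2:**
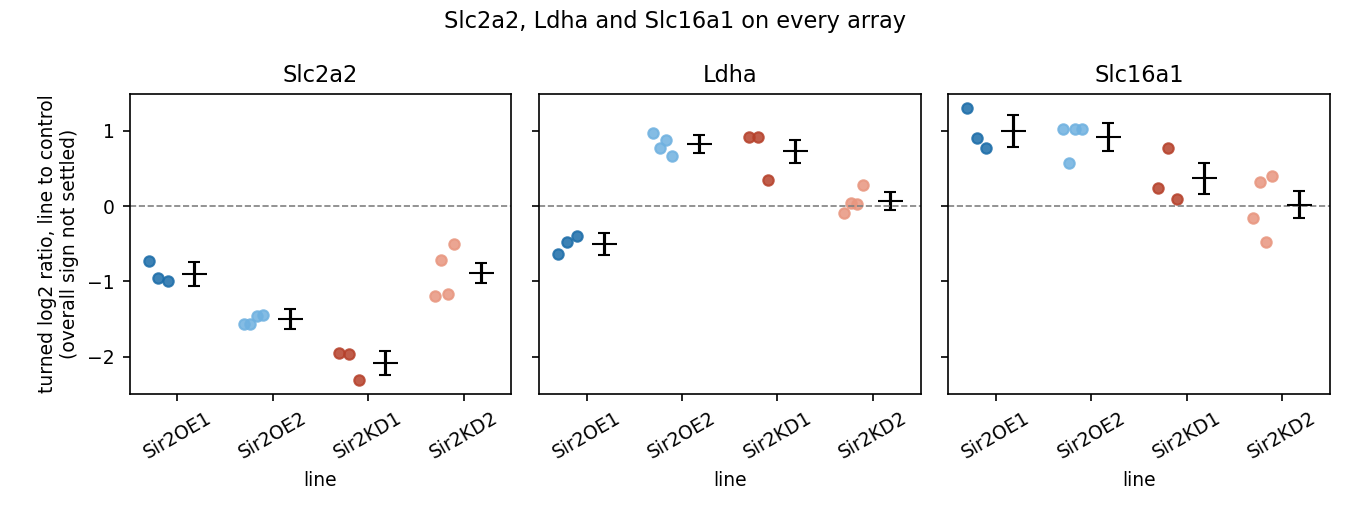
Turned log2 ratio (y axis) of Slc2a2, Ldha and Slc16a1 on every array (coloured points) by line (x axis), with the fitted ratio and its SE in black; n = 3, 4, 3 and 4 arrays. Slc2a2 is below 0 on 14 of 14 arrays, and the arrays of Ldha in Sir2OE1 and Sir2OE2 do not overlap.

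The ratios before turning show what this rests on. With the centring taken back out, the ratios came to whole percents, of which the smallest that solve it are given, since a factor shared by a probe's arrays of 1 kind is unknown. For Slc2a2 these percents were 73 and 62 in Sir2OE1 with the line in channel 2 and 242 with the channels exchanged, and in Sir2OE2 41 and 41 against 331 and 329. In Sir2KD1 they were 23 against 348 and 441, and in Sir2KD2 39 and 54 against 199 and 126. In every line, each array with the line in channel 1 stood above each array with the line in channel 2. With channel 2 on top, as assumed here, a constant difference between the channels would give the same percent in both orientations. Were the deposited ratios line over control already, such a constant would give the order seen. The spread of the percents differed between lines, from 23 to 441 in Sir2KD1 and from 39 to 199 in Sir2KD2.

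**Figure D3:**
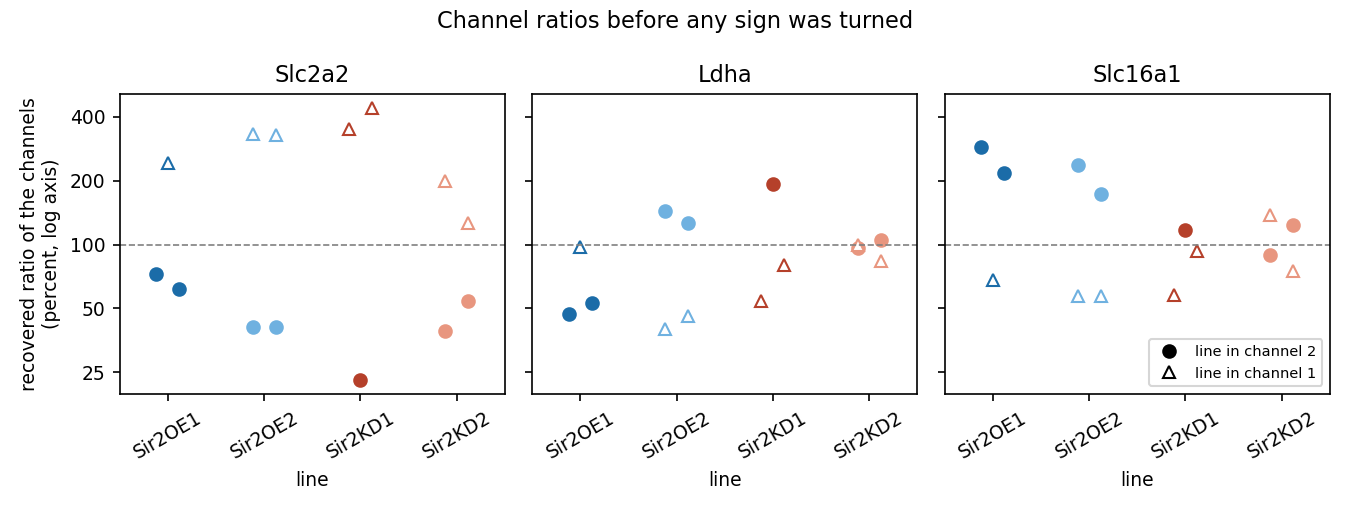
Channel ratios recovered by undoing the centring (y axis, percent, log axis) for Slc2a2, Ldha and Slc16a1 by line (x axis); filled circles are arrays with the line in channel 2, open triangles arrays with it in channel 1. For Slc2a2 the triangles (126 to 441) lie above the circles (23 to 73) in all 4 lines, while for Ldha in Sir2OE1 the circles (47 and 53) lie below the triangle (97) and in Sir2OE2 the circles (144 and 126) lie above the triangles (40 and 46).

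In Slc2a2 the arrays of the 2 knockdown lines did not overlap. Sir2KD1 was below Sir2KD2 by a log2 difference of -1.18 ± 0.21 (SE, n = 3 and 4 arrays, limma adjusted p = 0.0373), in a comparison that called 0.689% of all probes and 1 of 13 member probes. Sir2OE2 lay below Sir2OE1 by -0.61, which was not called (limma adjusted p = 0.437), and the difference between overexpressing and knockdown lines, 0.28, was not called either (limma adjusted p = 0.423). The call between the knockdown lines was kept in the fits without Sir2KD2 slide 1 or slide 3 and lost when any other array of the 14 was left out, with limma adjusted p from 0.0515 to 0.0981 and the difference between -1.31 and -0.99. In Sir2OE1 the call was lost without any of its own arrays (limma adjusted p = 0.0829, 0.167 and 0.224) and without Sir2OE2 slide 1 (0.0533) or slide 3 (0.0503). In Sir2KD2 it was lost without its slide 1 (-0.77, limma adjusted p = 0.0676) or slide 3 (-0.78, limma adjusted p = 0.0648). Fitting each kind of line alone also ended the calls in Sir2OE1 (limma adjusted p = 0.0543) and Sir2KD2 (limma adjusted p = 0.146), while those in Sir2OE2 and Sir2KD1 were kept there and in every leave-one-out fit.

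The RefSeq promoter window of Slc2a2 (GRCm38.p6, 250 bases before to 50 after the start of transcription) lies at chr3:28697653-28697952 on the + strand. It is shown because Slc2a2 was the one member called in every line. Promoter windows of all 9 members were searched on both strands for TAAT, a core bound by homeodomain factors such as Pdx1 and Isl1, for ACGTG, the core of the hypoxia response element, and for CACGTG, the E-box, which contains ACGTG on each strand. Capitals mark matches.
Slc2a2: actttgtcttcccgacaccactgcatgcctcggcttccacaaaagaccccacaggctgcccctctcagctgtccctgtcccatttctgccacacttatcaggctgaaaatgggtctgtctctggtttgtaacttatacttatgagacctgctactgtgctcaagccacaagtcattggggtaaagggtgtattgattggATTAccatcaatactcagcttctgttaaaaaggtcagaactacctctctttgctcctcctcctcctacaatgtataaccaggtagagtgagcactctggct
This window was 48.0% G and C and held 1 match to TAAT, on the - strand 51 bases before the start, and no match to ACGTG. TAAT was held by 58.0% of all 32851 promoter windows listed, ACGTG by 19.6% and CACGTG by 7.15%. The 9 members had 14 windows, of which 7 held TAAT, 8 held ACGTG and 3 held CACGTG.

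The probes most like Slc2a2 over the 14 arrays were found by the cosine of the turned log2 ratios, over 16870 probes with 1 gene symbol and values on every array. The highest were Cartpt, a neuropeptide precursor of islet cells (0.985), Slc37a2, a sugar-phosphate exchanger of the endoplasmic reticulum (0.983), Arhgap24 (0.968), Pja1, a ubiquitin ligase (0.964), and Syt5, a synaptotagmin of secretory vesicles (0.96). Cartpt was at -1.48, -2.40, -3.60 and -0.90 in Sir2OE1, Sir2OE2, Sir2KD1 and Sir2KD2, and Slc37a2 at -0.80, -1.12, -1.97 and -0.71. Both were called in 4 of 4 lines, as Slc2a2 was. The arrays share channels, controls and RNA, so the cosines describe likeness and carry no test.

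**Figure D4:**
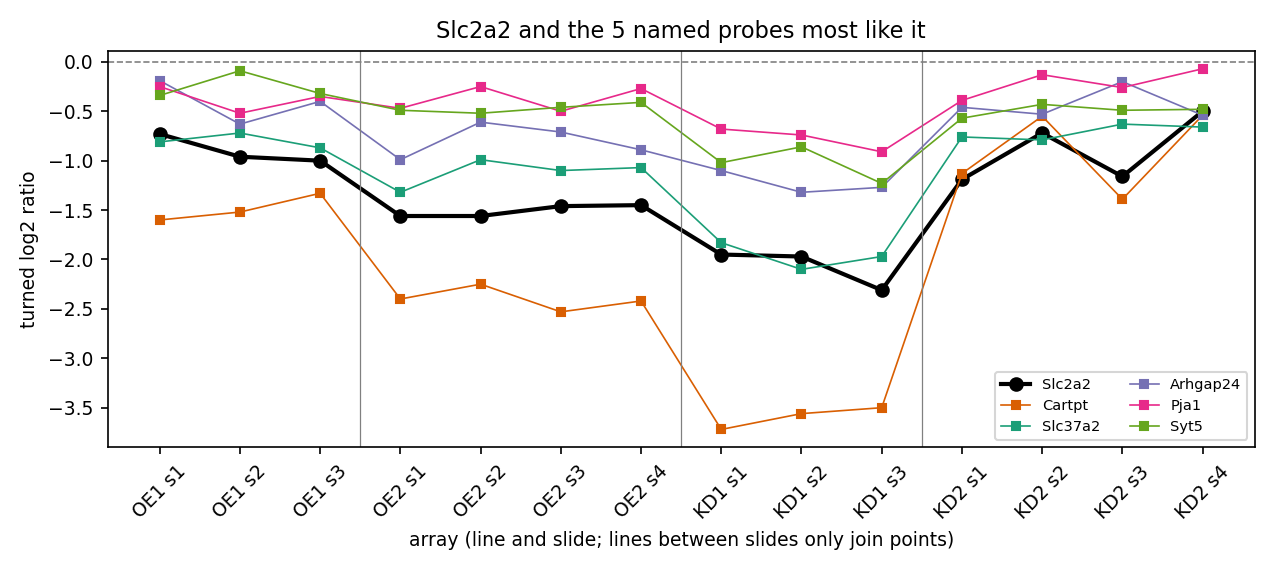
Turned log2 ratio (y axis) of Slc2a2 (black) and the 5 named probes most like it on the 14 arrays (x axis, line and slide; joining lines only guide the eye). All 6 are below 0 on every array and reach their lowest values in Sir2KD1, where Cartpt was at -3.60 and Slc2a2 at -2.08.

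Slc2a1 encodes GLUT1, the widely expressed high-affinity glucose transporter that human beta cells and many dividing cells use. Its turned log2 ratio was 0.16, -0.49 and -0.09 on the arrays of Sir2OE1 and 0.37, 0.14, 0.11 and 0.30 on those of Sir2OE2. It was 0.00, -0.16 and -0.16 in Sir2KD1 and 0.33, 0.02, 0.45 and 0.11 in Sir2KD2. The arrays of Sir2OE2 and Sir2KD2 were all on the plus side, but near 0. The fitted ratios were -0.14 ± 0.15, 0.23 ± 0.13, -0.10 ± 0.15 and 0.23 ± 0.13 (SE, n = 3, 4, 3 and 4), none of them called. In Sir2KD1, where Slc2a2 was lowest, the 95% interval for Slc2a1 ran from -0.44 to 0.23. Of the 16 other glucose and hexose transporters listed, 9 were measured and limma called none in any line, with ratios from -0.78 to 0.88 and unadjusted p under 0.05 for 3, 1, 0 and 2 of them in the 4 lines.

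Hk1 and Hk2 encode high-affinity hexokinases, which phosphorylate glucose at low concentrations and are low in mature beta cells. Limma called none of the 6 hexokinase probes in any line (0, 1, 1 and 2 had an unadjusted p under 0.05), and the probes of 1 gene did not give 1 pattern. The most precise, Hk1 probe 17427, had a residual SD of 0.16 against a median of 0.386 over all probes. Its arrays were at 0.27, 0.03 and -0.06 in Sir2OE1, 0.23, 0.20, 0.33 and 0.37 in Sir2OE2, 0.20, 0.54 and 0.47 in Sir2KD1, and -0.28, -0.37, -0.61 and -0.43 in Sir2KD2. The knockdown lines lay on opposite sides, with no overlap. Their fitted ratios were 0.40 ± 0.13 (SE, n = 3) in Sir2KD1 and -0.42 ± 0.11 (n = 4) in Sir2KD2, and the difference of 0.83 missed the threshold (limma adjusted p = 0.0624). It passed with 1 channel term for all arrays (limma adjusted p = 0.024) or none (limma adjusted p = 0.00898). Of the other Hk1 probes, 4671 stood on the same sides, at 0.65 ± 0.36 and -0.27 ± 0.30 in Sir2KD1 and Sir2KD2, with overlapping arrays and a difference of 0.91 that was not called (limma adjusted p = 0.494). Both lines were on the plus side for probe 14526, at 0.20 ± 0.19 and 0.05 ± 0.16, and for probe 22112, at 0.33 ± 0.31 and 0.22 ± 0.26.

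The 2 probes of Hk2, the isoform raised in proliferating cells, also differed. Probe 2909 was at -0.80, -0.61, -1.18 and -0.64 on the 4 arrays of Sir2KD2, a fitted -0.81 ± 0.29 (SE, n = 4) that was not called. Its arrays in the other lines lay on both sides of 0, from -0.92 to 0.31 in Sir2OE1, -1.06 to 0.25 in Sir2OE2 and -0.42 to 1.23 in Sir2KD1. Probe 14524 was at 0.09 ± 0.17 in Sir2KD2 and between 0.01 and 0.40 in the other lines. The noisy probe 2909 had a residual SD of 0.646, higher than in 77.1% of all probes, so only large differences could have been called with it.

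G6pc2 encodes the islet glucose-6-phosphatase, which opposes glucokinase by returning glucose 6-phosphate to glucose. Its fitted ratios were -0.21 ± 0.20, -0.41 ± 0.17, 0.05 ± 0.20 and 0.02 ± 0.17 (SE, n = 3, 4, 3 and 4) in Sir2OE1, Sir2OE2, Sir2KD1 and Sir2KD2. On the 7 overexpression arrays the recovered percents of this probe, 82, 95, 100, 107, 105, 138 and 255, were the same 7 numbers that recurred most often on the platform. In all, 56 probes carried this exact set and 329 carried it within 1 percentage point on at least 5 arrays. The ratios of G6pc2 in the overexpressing lines were thus shared, number for number, by probes of other genes, and the reason was not tested. On the knockdown arrays its percents ran from 75 to 86 and equalled the commonest set on 4 of 7 arrays.

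Ldha encodes the lactate dehydrogenase subunit that favours conversion of pyruvate to lactate, and is kept low in mature beta cells. Its turned log2 ratio was -0.64, -0.47 and -0.40 on the arrays of Sir2OE1 and 0.97, 0.78, 0.88 and 0.67 on those of Sir2OE2. It was 0.92, 0.92 and 0.35 in Sir2KD1 and -0.09, 0.04, 0.03 and 0.28 in Sir2KD2. The 2 overexpressing lines, which shared a control, stood on opposite sides with no overlap, and the arrays of Sir2KD1 all lay above those of Sir2KD2. The fitted ratio was 0.83 ± 0.12 (SE, n = 4, 1.77-fold) in Sir2OE2 and 0.73 ± 0.15 (n = 3, 1.66-fold) in Sir2KD1, both called. In Sir2OE1 it was -0.50 ± 0.15 (n = 3) and in Sir2KD2 0.07 ± 0.12 (n = 4), neither called. Sir2OE2 exceeded Sir2OE1 by 1.33 ± 0.19 (SE, n = 4 and 3, limma adjusted p = 0.0199), in a comparison that called 0.323% of all probes and 1 member probe. This difference lost its call without any array of Sir2OE1 (limma adjusted p = 0.0815, 0.0875 and 0.0949 for slides 1, 2 and 3) and without Sir2OE2 slide 1 (0.114), slide 2 (0.0921) or slide 3 (0.0629), and it stayed between 1.26 and 1.43. The call in Sir2KD1 was lost without its slide 1 (0.55, limma adjusted p = 0.251) or slide 2 (0.64, limma adjusted p = 0.109).

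Slc16a1 encodes MCT1, a plasma membrane carrier of lactate and pyruvate that is nearly silent in mature beta cells. Its turned log2 ratio was 1.31, 0.91 and 0.77 on the arrays of Sir2OE1 and 1.03, 0.57, 1.03 and 1.03 on those of Sir2OE2. It was 0.24, 0.77 and 0.09 in Sir2KD1 and -0.15, 0.32, -0.47 and 0.40 in Sir2KD2. All 7 overexpression arrays were at 0.57 or above, and 1 of 7 knockdown arrays was, so the kinds of line overlapped on that array alone. The fitted ratio was 0.92 ± 0.18 (SE, n = 4, 1.89-fold) in Sir2OE2, which was called, and 1.00 ± 0.21 (n = 3, 2.00-fold) in Sir2OE1, which was not. In Sir2KD1 it was 0.37 ± 0.21 (n = 3) and in Sir2KD2 0.02 ± 0.18 (n = 4). The overexpressing lines exceeded the knockdown lines by 0.76, which missed the threshold (limma adjusted p = 0.078) in a comparison that called 2.66% of all probes and none of the members, of which 1 had an unadjusted p under 0.05. With 1 channel term for all arrays that difference passed (limma adjusted p = 0.0449), as did the ratio in Sir2OE1 (limma adjusted p = 0.0258). Both fits took arrays, not lines, as replicates. The call in Sir2OE2 was lost without its slide 1 (limma adjusted p = 0.128), slide 3 (0.12) or slide 4 (0.112), and Sir2OE1 gained a call without Sir2KD2 slide 3 (limma adjusted p = 0.0436).

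Ldha and Slc16a1 both handle lactate, but they did not share a pattern. In Sir2OE1 Ldha was on the minus side on 3 of 3 arrays and Slc16a1 on the plus side on 3 of 3, while in Sir2OE2 both were on the plus side on 4 of 4. The probes most like Ldha were Clu, the secreted chaperone clusterin (cosine 0.951), Slc35b4, a nucleotide-sugar transporter (0.938), Dpysl4 (0.933), Chpf (0.918) and Vmn1r14 (0.911). On this probe Clu was at -0.30, 0.83, 0.85 and 0.06 in Sir2OE1, Sir2OE2, Sir2KD1 and Sir2KD2, close to the values of Ldha. Clu and Slc35b4 each had 1 other probe, which was not among those most like Ldha. A promoter window of each lactate gene is shown because it held matches to CACGTG, which the window of Slc2a2 did not. The first of the 2 windows of Ldha lies at chr7:46845554-46845853 and the one of Slc16a1 at chr3:104638414-104638713, both on the + strand of GRCm38.p6, and capitals mark CACGTG and ACGTG on either strand.
Ldha: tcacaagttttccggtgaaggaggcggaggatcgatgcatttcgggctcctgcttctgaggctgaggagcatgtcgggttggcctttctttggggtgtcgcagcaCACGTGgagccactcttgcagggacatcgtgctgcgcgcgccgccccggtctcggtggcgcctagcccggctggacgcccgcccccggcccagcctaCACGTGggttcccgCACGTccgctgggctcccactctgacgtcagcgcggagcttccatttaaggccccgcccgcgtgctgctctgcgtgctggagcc
Slc16a1: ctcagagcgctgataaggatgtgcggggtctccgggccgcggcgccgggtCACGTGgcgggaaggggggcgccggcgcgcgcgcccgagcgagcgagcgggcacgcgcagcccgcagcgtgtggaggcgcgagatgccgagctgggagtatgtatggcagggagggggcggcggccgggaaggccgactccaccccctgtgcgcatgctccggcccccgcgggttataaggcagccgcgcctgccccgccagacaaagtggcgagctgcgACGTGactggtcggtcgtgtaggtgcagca
The first Ldha window held 2 matches to CACGTG and 5 to ACGTG counted over both strands, of which the E-boxes give 4. The second, at chr7:46846832-46847131, held neither, and 1 match to TAAT. The Slc16a1 window held 1 and 3. The windows shown were 67.3% and 73.7% G and C, and short motifs rich in these bases are met more often in such windows. The remaining window with CACGTG was the first of Pcx.

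Gpd2 encodes the mitochondrial glycerol phosphate dehydrogenase, which passes electrons of glycolytic NADH to the respiratory chain. Its turned log2 ratio was -0.49, -0.58, -0.54 and -0.34 on the arrays of Sir2OE2, a fitted -0.49 ± 0.12 (SE, n = 4), and -0.14, -0.51, -0.63 and -0.12 on those of Sir2KD2, a fitted -0.35 ± 0.12 (n = 4). All 8 of these arrays were on the minus side, but neither line was called. With 1 channel term for all arrays Sir2OE2 was called (limma adjusted p = 0.0365). In Sir2OE1 and Sir2KD1 the ratio was -0.09 ± 0.15 and -0.07 ± 0.15 (n = 3 each), with arrays on both sides.

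Pcx encodes pyruvate carboxylase, which feeds pyruvate into oxaloacetate and is abundant in beta cells. It was at 0.10, 0.82 and 0.15 on the arrays of Sir2OE1 and 0.09, -0.13, 0.21 and 0.16 on those of Sir2OE2. It was at 0.76, 0.82 and 0.08 in Sir2KD1 and 0.07, 0.25, 0.47 and 0.26 in Sir2KD2. Of 14 arrays 13 were on the plus side, with the highest in Sir2OE1 and Sir2KD1. The fitted ratio was largest in Sir2KD1, 0.55 ± 0.19 (SE, n = 3, 95% interval 0.13 to 0.97), and no line was called.

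The other genes of these pathways were taken from 9 lists with 160 entries, of which 129 genes were measured on 377 probes. A single accession of Gapdh accounts for 232 of those probes, so counts over the lists are mostly counts of it. These repeats show the spread of 1 transcript within arrays. They had medians of -0.23, 0.00, 0.04 and -0.19 in Sir2OE1, Sir2OE2, Sir2KD1 and Sir2KD2 and an SD over probes of 0.13, 0.15, 0.077 and 0.091, and limma called none of the 232 in any line (32, 6, 0 and 12 had an unadjusted p under 0.05). Their lowest values were -0.78, -0.57, -0.12 and -0.61.

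Of the other glycolysis enzymes, 17 genes were measured on 19 probes. Pfkm, the muscle-type phosphofructokinase that catalyses the committing step, was called on the minus side in Sir2OE1 (-0.94 ± 0.17, SE, n = 3), and Tpi1, triose phosphate isomerase, on the plus side in Sir2KD1 (0.65 ± 0.13, n = 3). None of the rest was called, and the median over the 19 probes was -0.10, -0.03, -0.03 and -0.05 in the 4 lines. The 2 calls stand beside calls of 1.06% of all probes in Sir2OE1 and 3.59% in Sir2KD1. The Pfkm call was kept in 7 of 14 leave-one-out fits (highest limma adjusted p = 0.198), and the Tpi1 call was lost without any array of Sir2KD1 (highest limma adjusted p = 0.221). The list median thus stayed near 0 in all 4 lines.

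Among 18 measured genes of lactate and pyruvate handling, Slc16a3 (MCT4, the lactate exporter of glycolytic cells) was the one called, on the minus side in Sir2OE1 (-0.96 ± 0.12, SE, n = 3) and Sir2KD2 (-0.72 ± 0.10, n = 4). In Sir2OE1 it thus stood on the other side of 0 from its relative Slc16a1, which was at 1.00. The call in Sir2KD2 was kept in all 14 leave-one-out fits, and that in Sir2OE1 was lost without Sir2OE1 slide 3 (limma adjusted p = 0.0655). Of 17 measured shuttle and anaplerosis genes, Gpd1, the cytosolic partner of Gpd2, was called in Sir2OE2 (-0.58 ± 0.10, n = 4), a call lost without its slide 1, 2 or 3 (highest limma adjusted p = 0.0958). Gpd2 itself was at -0.49 there. Of 7 measured genes of gluconeogenesis and glucose-6-phosphatase, Fbp2, a fructose bisphosphatase, was called on the minus side in Sir2OE2 (-0.86 ± 0.10, n = 4) and Sir2KD1 (-0.82 ± 0.12, n = 3). The first of these was kept in all 14 leave-one-out fits, and the second was lost without Sir2KD1 slide 1 (limma adjusted p = 0.0627). Each call was 1 probe of a short list. It made 5.26% of the lactate and pyruvate probes, 5.56% of the shuttle probes and 14.3% of the gluconeogenesis probes. Of all probes, 1.06%, 2.81%, 3.59% and 1.34% were called in Sir2OE1, Sir2OE2, Sir2KD1 and Sir2KD2.

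The glucose-responsive factor ChREBP drives lipogenic and glycolytic genes, and 12 genes of its axis were measured. Acaca, acetyl-CoA carboxylase, was called in Sir2KD1 (1.52 ± 0.25, SE, n = 3) through 1 of its 3 probes, and the other probes were at -0.55 and 0.17. Hypoxia-inducible genes commonly include Ldha, and 18 others were measured. Higd1a, a mitochondrial protein induced by hypoxia, was called on the plus side in Sir2KD1 (1.21 ± 0.23, n = 3), and Bnip3, a mitophagy receptor, on the minus side in Sir2OE1 (-1.15 ± 0.13, n = 3). The medians of the hypoxia list were 0.10, 0.02, 0.00 and -0.06 in the 4 lines. Higd1a lost its call without Sir2KD1 slide 1 or 3 (highest limma adjusted p = 0.0832) and Bnip3 without Sir2OE1 slide 3 (limma adjusted p = 0.0692). No more than 1 gene of this hypoxia list was called in a line, beside Ldha in Sir2OE2 and Sir2KD1. Genes placed on other lists, Slc16a3 and Tpi1 among them, were not counted here. The 1 call in Sir2OE1 and in Sir2KD1 was 5.26% of the 19 hypoxia probes, beside 1.06% and 3.59% of all probes. The Acaca call was 6.67% of the 15 ChREBP probes in Sir2KD1.

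Ldha and Slc16a1 belong to a small group of genes repressed in mature beta cells, and 18 others of that group were measured on 24 probes. Of these, 1, 1, 5 and 2 were called in Sir2OE1, Sir2OE2, Sir2KD1 and Sir2KD2, on both sides of 0, beside 1.06%, 2.81%, 3.59% and 1.34% of all probes. The list medians were 0.06, 0.04, 0.02 and -0.02. Igfbp4, an IGF-binding protein, was called at 2.66 ± 0.21 (SE, n = 4) in Sir2OE2 and -1.39 ± 0.25 (n = 3) in Sir2KD1. The transcription factor Maf was called at 1.66 ± 0.30 and the chemokine Cxcl12 at 1.63 ± 0.29 in Sir2KD1 (n = 3), with 1.20 and 0.95 in Sir2KD2, which were not called. Oat, ornithine aminotransferase, was called at -0.96 ± 0.22 in Sir2KD1 (n = 3) and -1.06 ± 0.19 in Sir2KD2 (n = 4). Acot7, an acyl-CoA thioesterase, was called at -1.29 ± 0.24 in Sir2OE1 (n = 3) and -0.97 ± 0.20 in Sir2KD2 (n = 4), with 0.77 and 0.62 in the other lines. Acot7 thus had the same sides as Ldha in the overexpressing lines. Fgf1 was called at -1.03 ± 0.15 in Sir2KD1 (n = 3) through 1 of its 2 probes, and the other was at 0.05. The calls of Igfbp4 in Sir2OE2 and Fgf1 in Sir2KD1 were kept in all 14 leave-one-out fits. Igfbp4 in Sir2KD1 was lost without its slide 1 or 2 (highest limma adjusted p = 0.109), Maf without Sir2KD1 slide 3 (0.0731), Cxcl12 without Sir2KD1 slide 1 (0.154), where it was at 0.80, and Oat in Sir2KD2 without its slide 1 or 4 (0.12). The calls of Acot7 in Sir2OE1, Acot7 in Sir2KD2 and Oat in Sir2KD1 were kept in 8, 3 and 3 of the 14 fits.

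**Figure D5:**
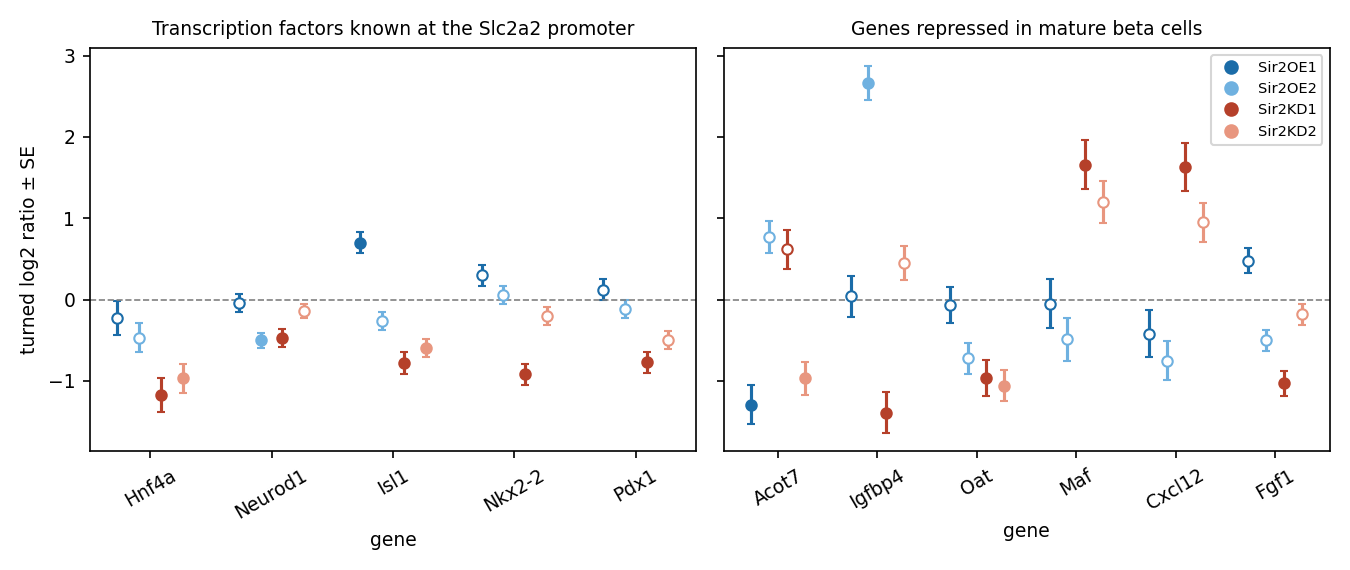
Turned log2 ratio (y axis, with SE bars) in the 4 lines (colours) of the named genes among transcription factors known at the Slc2a2 promoter (left) and among genes repressed in mature beta cells (right); filled points were called by limma. The probes plotted were chosen because limma called them in a line. On the left, those of all 5 genes are on the minus side in Sir2KD1, from -0.47 to -1.17. On the right those of Sir2KD1 stand on both sides, from -1.39 to 1.66. Other probes of Hnf4a (0.37 in Sir2KD1) and Fgf1 (0.05) are not plotted.

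Of 15 transcription factors known to act at the Slc2a2 promoter, 12 were measured on 15 probes. In Sir2KD1, where Slc2a2 was lowest, 5 were called, all on the minus side, where limma called 3.59% of all probes and 461 of those 833 calls were on that side. Of the 5, 2, Hnf4a and Isl1, were called on that side in Sir2KD2 as well (1.34% of all probes). In Sir2OE1 (1.06%) 1 was called on the plus side and in Sir2OE2 (2.81%) 1 on the minus side. The list medians were 0.12, -0.12, -0.17 and -0.19. The nuclear receptor Hnf4a was at -1.17 ± 0.21 (SE, n = 3) in Sir2KD1 and -0.97 ± 0.18 (n = 4) in Sir2KD2 on the called probe, while its other probe was at 0.37 and 0.08. The homeodomain factor Nkx2-2 was called at -0.92 ± 0.13 in Sir2KD1 (n = 3), a call kept in all 14 leave-one-out fits, and Pdx1, the homeodomain factor best known at this promoter, at -0.77 ± 0.13 (n = 3). Isl1 was called at 0.70 ± 0.13 in Sir2OE1 (n = 3), -0.78 ± 0.13 in Sir2KD1 (n = 3) and -0.59 ± 0.11 in Sir2KD2 (n = 4). Neurod1, which activates insulin and other islet genes, was called at -0.50 ± 0.09 in Sir2OE2 (n = 4) and -0.47 ± 0.11 in Sir2KD1 (n = 3). In Sir2OE1, Slc2a2 was at -0.90, Isl1 at 0.70, Nkx2-2 at 0.30, Pdx1 at 0.12 and Neurod1 at -0.04. Hnf4a was there at -0.23 on the probe called in the knockdown lines and at 0.27 on the other. The part of these factors in the ratio of Slc2a2 was not tested.

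Several of these calls were lost in leave-one-out fits, with the ratio on the same side in each. In Sir2KD1, Pdx1 and Isl1 lost theirs without slide 1 (limma adjusted p = 0.111 and 0.0926), while their ratios over the 14 fits stayed between -0.80 and -0.68 and between -0.79 and -0.77. Hnf4a lost its call there without slide 1 or 2 (highest limma adjusted p = 0.0949, ratios from -1.45 to -0.88), and Neurod1 kept its call in 2 of 14 fits (ratios from -0.51 to -0.43). In Sir2KD2, Hnf4a lost its call without any of that line's arrays (highest limma adjusted p = 0.129, ratios from -1.08 to -0.86), and Isl1 kept it in 6 of 14 fits (ratios from -0.61 to -0.57). Isl1 in Sir2OE1 kept its call in 1 of 14 fits (ratios from 0.57 to 0.95), and Neurod1 in Sir2OE2 lost it without any of that line's arrays (highest limma adjusted p = 0.108, ratios from -0.53 to -0.46).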

How the data were processed

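The authors deposited log2 ratios of the channels of 14 two-colour arrays. The sources used here name no scanner software, background correction or normalization. Per the labels, each array set a line against its control with channels exchanged within a line. For each probe and kind of line the values summed to 0 over 6 of 7 arrays, and undoing that centring gave whole-number percents for 100.0% of complete probes (relative tolerance 1e-05). Probes were named from the platform annotation of 2007, updated through Entrez identifiers. Ratios were fitted with limma 3.58.1 (lmFit and eBayes in R 4.3.3) in 1 model of the 14 arrays that held a term for each line, a channel term for each kind and 8 residual degrees of freedom. A probe with values on fewer than 2 arrays of some line was left out, and Benjamini-Hochberg adjustment ran over the remaining 23230, with 0.05 as the threshold. The number of arrays limits the precision. In data simulated on 23227 probes, the fit called 38, 46, 34 and 50% of shifts of size 1 (log2) in Sir2OE1, Sir2OE2, Sir2KD1 and Sir2KD2. The members, gene lists and tests were chosen with earlier results of these data known. From the lists, genes called in at least 2 lines were named, and up to 3 per list called in 1 line, those with the largest ratio. The main fit did not pair arrays by slide number. Promoter windows came from RefSeq (GRCm38.p6).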

Additional observations from a re-analysis of the deposited data

Results flagged for a closer look

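Among the members, the knockdown lines differed in Slc2a2, with Sir2KD1 below Sir2KD2 by -1.18 (limma adjusted p = 0.0373), and the overexpressing lines differed in Ldha, by 1.33 (limma adjusted p = 0.0199). Both genes were chosen with these ratios known, so the differences are a description. Some arrays stood apart from the others of their line. G6pc2 was at -1.09 on slide 4 of Sir2OE2, against -0.20 to -0.16 on the others, and this is one of the arrays on which its ratio is shared with many probes. Slc16a1 was at 0.57 on slide 2 of Sir2OE2, against 1.03 on each of the others. Pdx1 was at -0.39 on slide 3 of Sir2OE2, against -0.05 to -0.02, and at -0.63 on slide 4 of Sir2KD2, against -0.46 to -0.44. Of 64 groups of arrays examined in this way 4 stood out, and chance gives about 1 in 20.

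Genes of the wider lists also differed between lines, among probes named because the same fit had called them in a line. That choice favours such differences, so they are a description. Of all probes, 0.323% were called between the overexpressing lines, 0.689% between the knockdown lines and 2.66% between kinds. Tpi1 was higher in Sir2KD1 than in Sir2KD2 by 0.93 (limma adjusted p = 0.0417). Acot7 was higher in Sir2OE2 than in Sir2OE1 by 2.05 (limma adjusted p = 0.0241). Igfbp4 was higher in Sir2OE2 than in Sir2OE1 by 2.62 (limma adjusted p = 0.00916) and lower in Sir2KD1 than in Sir2KD2, with -1.84 (limma adjusted p = 0.0394). The mean of the overexpressing lines lay above that of the knockdown lines for Igfbp4 (1.82, limma adjusted p = 0.0019), Isl1 (0.90, limma adjusted p = 0.00275), Nkx2-2 (0.74, limma adjusted p = 0.0103) and Pdx1 (0.64, limma adjusted p = 0.016). It lay below for Cxcl12 (-1.88, limma adjusted p = 0.00382), Maf (-1.70, limma adjusted p = 0.00891), Bnip3 (-0.68, limma adjusted p = 0.0115), Higd1a (-1.20, limma adjusted p = 0.0125), Gpd1 (-0.57, limma adjusted p = 0.0202) and Pfkm (-0.71, limma adjusted p = 0.0397). The kinds of line had different controls and vectors, so a difference between kinds cannot be told apart from one between their controls. The adjusted p between kinds also took arrays as replicates, while each kind had only 2 lines. When lines were counted instead of arrays, 0 of 23230 probes were called between kinds, against 617 in the main fit. So few lines could miss such differences, so that count does not decide whether they would recur in other lines.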

How the results depend on the processing

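Of 1296 values of the member probes in the lines under the alternatives, 1207 stayed within the spread between arrays, 81 moved further and 8 called values turned sign, all 8 with no sign turned. A further 82 values that were not called changed sign, 51 of them with no sign turned and 31 under other alternatives, and these are counted among those that stayed or moved. Many values that stayed could not have moved. The fitted ratio of a line does not depend on arrays of the other kind, on which other probes are kept or on the robust fit. Fitting each kind alone leaves it unchanged too, and only its adjusted p can change. With no sign turned, every count of called member and wider pathway probes in the lines was 0. The deposited values of a probe sum to 0 over 6 of 7 arrays of a kind. Unturned, a ratio common to the 2 lines of a kind is thus largely removed, and these counts cannot show one. Slc2a2 was then at 0.19 in Sir2OE1 and 0.31 in Sir2KD1, Ldha at -0.04 in Sir2KD1 and Slc16a1 at -0.13 in Sir2OE2. With the centring undone as well, an alternative chosen after seeing the data, Slc2a2 was at 0.47, 0.22 and 0.16 in Sir2OE1, Sir2OE2 and Sir2KD1. Ldha was at -0.40 in Sir2OE2. A factor shared by a probe's arrays of 1 kind is unknown, so these values, and the calls in lines and between kinds, depend on the percents taken. The member calls in and between lines of a kind were 0, and the call between kinds was 1. Wider calls were 109, 30, 7 and 15 in Sir2OE1, Sir2OE2, Sir2KD1 and Sir2KD2, on probes that are mostly Gapdh repeats. Limma then called 2913, 672, 333 and 1403 of all probes in these lines and 4140 between kinds. With the other channel on top in the knockdown arrays alone, 3 members differed between kinds. Limma then called 1160 of all probes between kinds, against 617 in the main fit, both with arrays rather than lines as replicates. The 3 were Slc2a2 (-2.69, limma adjusted p = 4.1e-06), Ldha (0.56, limma adjusted p = 0.042) and Slc16a1 (1.15, limma adjusted p = 0.00702). Slc2a2 would then stand on opposite sides in the overexpressing and knockdown lines. Beyond the centring and the unknown factor, the cause was not tested in any of these.

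Slide numbers were shared between lines. Turned ratios, less the line and channel terms, correlated from -0.389 to 0.237 between same-numbered arrays and from -0.538 to 0.498 between others. These correlations cannot show whether the numbers mark a shared batch. An effect shared by 2 arrays on the deposited ratio would take opposite signs after turning where their channels differ. With the slide number as a replicate block, member calls in Sir2OE1, Sir2OE2, Sir2KD1 and Sir2KD2 were 0, 0, 1 and 0, those between lines 0, and wider calls 0, 1, 2 and 0, while calls over all probes fell to 0, 21, 242 and 31. Slc2a2 was then at -0.79, -1.47, -1.99 and -0.86.

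With each kind fitted alone, member calls were 0 in Sir2OE1, 1 in Sir2KD1 and 0 in Sir2KD2, those between the lines of a kind 0, and wider calls 1 in Sir2OE1, 3 in Sir2KD1 and 0 in Sir2KD2, from fewer arrays. Over all probes, calls in Sir2OE1, Sir2OE2, Sir2KD1 and Sir2KD2 fell from 247, 653, 833 and 312 to 104, 459, 219 and 65. With 1 channel term, member calls were 2 in Sir2OE1, 2 between knockdown lines and 1 between kinds, and wider calls 12 in Sir2OE2 and 9 in Sir2KD2. With none, member calls were 2 in Sir2OE1, 2 in Sir2KD2, 2 between knockdown lines and 1 between kinds, and wider calls 17, 16 and 13 in Sir2OE1, Sir2OE2 and Sir2KD2. Over the leave-one-out fits, member calls ran from 0 to 2 in Sir2OE1, 1 to 2 in Sir2KD1, 0 to 1 in Sir2KD2 and 0 to 1 between the lines of each kind. Wider calls ran from 1 to 5, 2 to 7, 5 to 15 and 1 to 6. Calls over all probes changed as well, in Sir2OE1 to 86, 81 and 47 without its slides 1, 2 and 3. Of 28 calls of named wider genes, 6 were kept in all 14 leave-one-out fits and 3 under the block.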
